A study of Mus musculus with 6 samples.

Results

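The genes described here are 39 genes of DNA damage signalling and repair, chosen by symbol from the 31205 genes of a read count table. All 39 had enough reads to enter the test, among 11453 genes tested. The table compares DC2.4, an immortalized mouse dendritic cell line derived from bone marrow, with its derivative in which PD-L1 was knocked out. Cd274 encodes PD-L1, a surface protein that restrains T cells by binding PD-1. There were 3 control and 3 knockout libraries, and the labels name no drug, irradiation or other treatment for any of them. The series title sets the cell lines in a study of ferroptosis during immunogenic chemotherapy. The labels do not say whether the knockout line is a single clone, what the control cells carried, or whether separate cultures stand behind the 3 libraries per group. The replicate spread behind each p-value may thus be technical only.

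Cells answer DNA damage with kinases that sense broken or stalled DNA (ATM at breaks, ATR at exposed single strands), with scaffold proteins that hold the signal at the lesion, and with repair pathways suited to each kind of lesion. Breaks are joined directly by end joining or copied from the sister chromatid by homologous recombination, which is restricted to S and G2 phase and shares its late steps with the Fanconi anaemia pathway of crosslink repair. Mismatch repair corrects replication errors, base excision repair removes oxidized, deaminated or abasic bases, and nucleotide excision repair removes bulky lesions such as those of ultraviolet light. In dendritic cells, DNA breaks and oxidized bases arise from replication and from reactive oxygen species made during activation.

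Total counts were 10918498 to 23250065 in control and 13501776 to 21133688 in knockout. The defining transcript was no check of the labels: Cd274 reads numbered 52, 99 and 171 in control (libraries 1, 2 and 3, the order used throughout) against 102, 81 and 163 in knockout (log2 fold change 0.28, SE 0.25, adjusted p = 0.415, edgeR quasi-likelihood test), and reads summed over a gene do not reveal an edit inside it. Which cells are the knockout is therefore taken from the sample names alone. Haematopoietic and myeloid markers summed to 1870 to 2340 CPM (counts relative to library size, TMM-normalized) in every library, but within that list Lyz2 (-2.81), Csf1r (-0.72) and Cd44 (-0.39) were lower and Fcer1g (0.76) higher, and the other 6 of the 10 were not called. Of the 9 dendritic markers Itgax, Irf8, Cd74 and Id2 were present without a call, Id2 at 41.6 to 90.8 CPM in control and 23.8 to 141 in knockout. Zbtb46 was lower (-0.72, adjusted p = 0.049), while Flt3, Batf3, H2-Ab1 and Ccr7 were near 0 throughout. The part of these marker changes in the repair results was not tested. Control library 2 held 217 CPM of stromal and fibroblast markers, mostly Col1a1 and Fn1, against at most 0.537 CPM in the other libraries, with Dcn, Lum and Thy1 at 0. Its part in the results was not tested beyond leaving the library out, which is given below.

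In the knockout, 7 transcripts of homologous recombination and crosslink repair, the signalling transcripts Atm, Rif1 and Trp53bp1 and the end joining transcript Xrcc5 fell, and that of the glycosylase Ogg1 rose. In numbers, 11 of the 39 genes were lower and 1 was higher at an adjusted p under 0.05 (edgeR quasi-likelihood test, Benjamini-Hochberg over all genes tested), and 27 did not pass. Over all 11453 genes tested, 13.5% were lower and 11.8% higher, 25.3% in either direction. The share of the 39 was 28.2% lower and 2.56% higher. Their median log2 fold change (knockout minus control, used throughout) was -0.28, against 0.013 over all genes, and 24 of the 39 lay below 0. In 20 of the 39 the libraries of the 2 groups did not overlap, a share of 51.3%, against 43% of all genes tested. The falls lay in 3 roles: 7 of 13 genes of homologous recombination and crosslink repair, 3 of 7 of damage signalling and 1 of 4 of end joining. Median log2 fold changes by role were -0.46 in recombination and crosslink repair, -0.39 in damage signalling, -0.27 in end joining, 0.030 in mismatch repair, 0.14 in base excision and 0.24 in nucleotide excision repair. None of 3 mismatch repair and none of 4 nucleotide excision repair genes passed the test (0 at an unadjusted p under 0.05 in both groups; by DESeq2 0 as well).

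**Figure D1:**
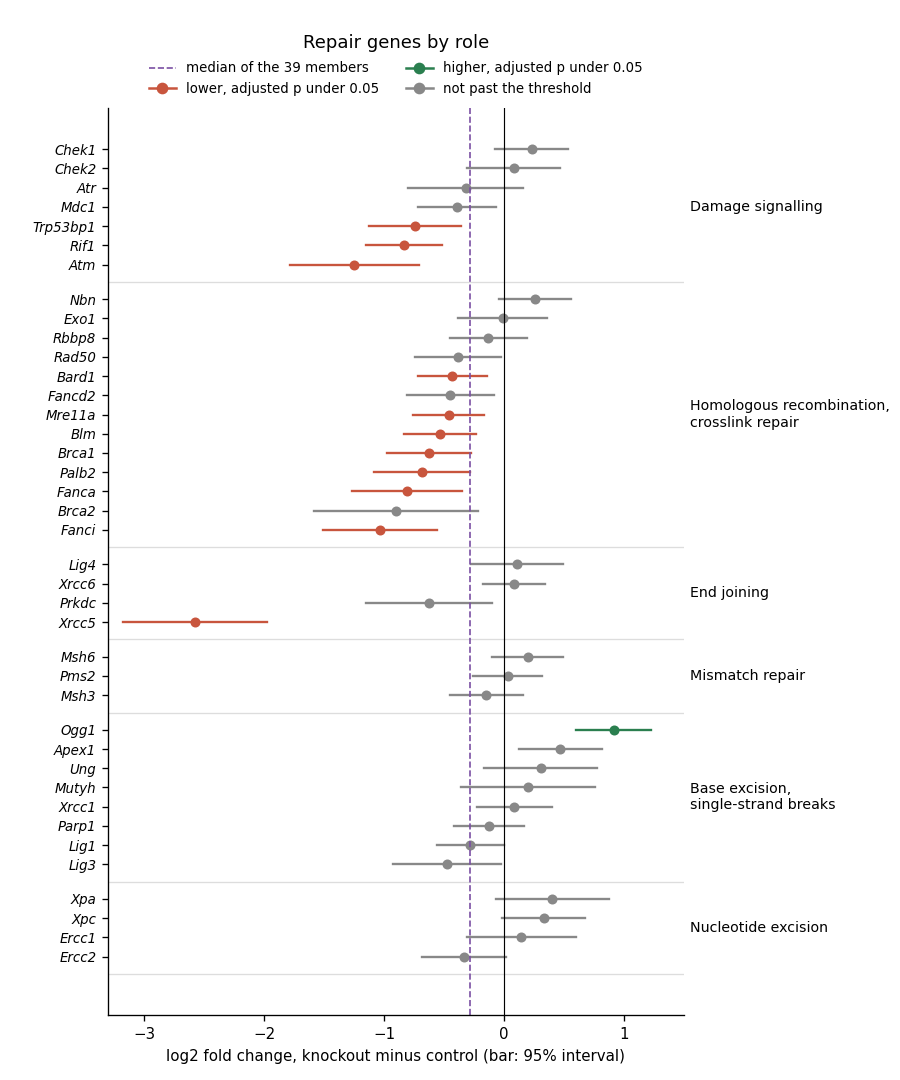
Log2 fold change (x axis, knockout minus control) of the 39 genes, grouped by role; points are edgeR estimates from 3 libraries per group and bars their 95% intervals, and the dashed line marks the median of the 39, -0.28. Red genes passed the test as lower, the green gene (Ogg1) as higher; red points lie in the 3 upper groups only.

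The fold changes of all genes in these libraries followed transcript length, and the 39 genes are longer than most, so the length trend is given before the single genes. Exon length here is the union of annotated exons of a gene. Over 11374 tested genes with a length, the median log2 fold change went from 0.35 in the shortest quintile (53 to 2412 bases) to -0.35 in the longest (7498 bases and more), and the share called lower from 4.75% to 32.8%. Spearman's rank correlation between exon length and fold change was -0.42 over those genes and -0.63 over the 39, across genes, which are not independent replicates. Of the 39, 14 lay in the longest quintile, 11 in the next, 6 in the middle one, 5 in that below and 3 in the shortest. In the longest quintile 6 of the 14 were lower, at a median of -0.58. In the next longest quintile 4 of 11 were lower, where 15% of all genes were, and their median was -0.39 against -0.11 for all genes of that length. The genes that fell had a median exon length of 8533 bases, the 27 without a call 5375, and all tested genes 4383. The roles differed in median exon length as well. It was 10338 bases in damage signalling, 7937 in recombination and crosslink repair and 4839 in end joining. In mismatch repair it was 8117, in base excision 4780.5 and in nucleotide excision 3640.5. The part of length in the differences between roles was not tested.

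With each library's trend in length and GC content removed, 9 of the 39 were lower and 2 higher, where 10.7% and 9.6% of all genes were, and the median of the 39 went to -0.10. All 9 were among the 11 first called lower. Trp53bp1 (-0.23, adjusted p = 0.148) and Blm (-0.32, adjusted p = 0.0562) did not pass after this step, and the nucleotide excision gene Xpc did, as higher (0.43, adjusted p = 0.047, from 0.33). The rank correlation with length over the 39 was then -0.19. This depended on how the trend was drawn: a least-squares trend in place of a robust one moved the median of all genes to 0.15 and left 4 of the 39 lower (Atm, Rif1, Fanci and Xrcc5) and 4 higher (Ogg1, Xpc, Atr and Pms2).

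**Figure D2:**
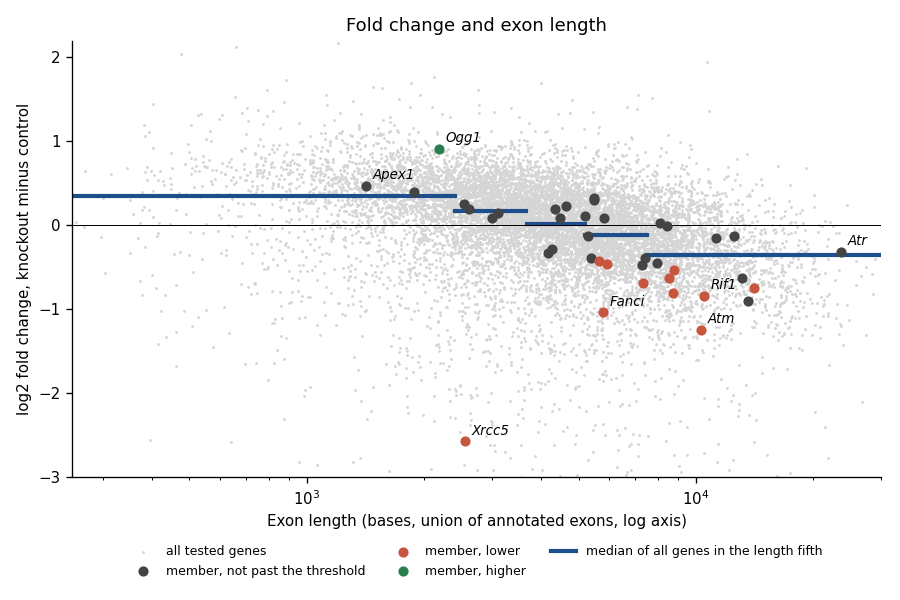
Log2 fold change against exon length (log axis): grey points are tested genes, larger points the 39 repair genes (red lower, green higher, dark without a call), and blue lines the median of all genes in each quintile of length, from 0.35 down to -0.35; 167 genes lie outside the plotted range. Xrcc5, a short gene, lies far below the genes of its length, and Ogg1 above them.

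**Figure D3:**
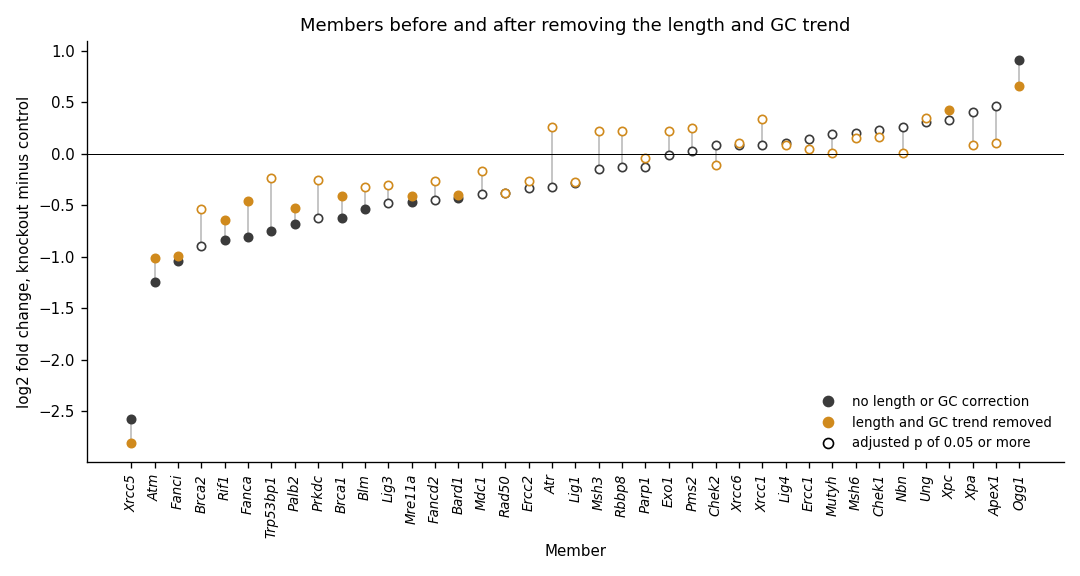
Log2 fold change of each of the 39 genes as tested (dark) and with the length and GC trend removed (orange); filled points passed an adjusted p of 0.05. The largest upward shifts were those of 4 long genes (Atr, Trp53bp1, Prkdc and Msh3), and Xrcc5 did not move toward 0.

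The calls also depended on single libraries. Without control library 2, the one with stromal transcripts, 3 of the 39 were lower (Atm, Rif1 and Xrcc5), and 472 genes in all. Without knockout library 2 or knockout library 3 there were 4, the same 3 genes with Fanci, and 645 and 682 genes in all. There were 7 without control library 1, 8 without control library 3 and 18 without knockout library 1. In the last of these fits 2616 genes in all were lower, so the count over all genes moved as well. Without control library 1 or 3 that count lay between 472 and 2616, the lowest and highest of all such fits. Atm, Rif1, Xrcc5 and Ogg1 passed in all 16 alternatives set beside the test. The 39 genes were graded between libraries: the median deviation of a library from the genes' own mean log2 CPM was 0.209, 0.163 and 0.041 in control, against -0.049, -0.114 and -0.184 in knockout. Knockout library 1 lay nearest to control. It was the highest of the 3 knockout libraries for 10 of the 11 genes that fell, and for 70.8% of the 1543 genes called lower in all.

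The promoters of 5 of the genes are shown: that of Atm, the signalling gene that fell most, that of Brca1, the only one of the genes that fell and had a window with an E2F-like match, those of the pair Xrcc5, which fell, and Xrcc6, which gave no call, and that of Ogg1, which rose. Each is a RefSeq window (GRCm38.p6) from 250 bases before to 50 after an annotated start, written 5′ to 3′ along the gene. The start used for Xrcc6 lies inside the gene as annotated by GENCODE, which begins further upstream. Capitals mark matches on either strand to CCAAT (read ATTGG on the other strand), to TTTGAA (a CHR-like element) or to TTNGCGC (an E2F-like element, GCGCNAA on the other strand). A CCAAT match and an E2F-like match can share letters where GCGCCAA runs on into a T.

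Atm, chr9:53536622-53536921, minus strand: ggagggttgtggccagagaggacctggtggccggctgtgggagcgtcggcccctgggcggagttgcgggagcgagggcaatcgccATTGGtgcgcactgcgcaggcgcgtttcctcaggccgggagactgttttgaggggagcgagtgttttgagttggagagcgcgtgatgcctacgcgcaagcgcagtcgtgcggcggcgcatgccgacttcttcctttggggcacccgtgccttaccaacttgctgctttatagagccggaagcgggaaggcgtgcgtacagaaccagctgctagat
Brca1, chr11:101551906-101552205, minus strand: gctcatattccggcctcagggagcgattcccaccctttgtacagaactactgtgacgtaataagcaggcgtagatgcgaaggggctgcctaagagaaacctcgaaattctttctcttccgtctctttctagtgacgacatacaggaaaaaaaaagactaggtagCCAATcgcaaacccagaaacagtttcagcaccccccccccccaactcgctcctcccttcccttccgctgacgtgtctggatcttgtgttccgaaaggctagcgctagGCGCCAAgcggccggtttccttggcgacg
Xrcc5, chr1:72307171-72307470, plus strand: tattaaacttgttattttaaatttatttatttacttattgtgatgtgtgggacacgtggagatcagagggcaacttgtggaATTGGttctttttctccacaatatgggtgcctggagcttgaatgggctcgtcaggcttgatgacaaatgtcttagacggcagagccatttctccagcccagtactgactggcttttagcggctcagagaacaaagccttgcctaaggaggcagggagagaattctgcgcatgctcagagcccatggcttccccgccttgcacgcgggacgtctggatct
Xrcc6, chr15:82016119-82016418, plus strand: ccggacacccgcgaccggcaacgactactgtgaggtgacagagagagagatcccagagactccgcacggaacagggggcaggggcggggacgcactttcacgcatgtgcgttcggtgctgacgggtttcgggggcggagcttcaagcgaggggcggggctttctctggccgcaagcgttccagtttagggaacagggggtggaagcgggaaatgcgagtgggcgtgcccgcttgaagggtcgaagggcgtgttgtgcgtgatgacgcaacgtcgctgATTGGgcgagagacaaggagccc
Ogg1, chr6:113326726-113327025, plus strand: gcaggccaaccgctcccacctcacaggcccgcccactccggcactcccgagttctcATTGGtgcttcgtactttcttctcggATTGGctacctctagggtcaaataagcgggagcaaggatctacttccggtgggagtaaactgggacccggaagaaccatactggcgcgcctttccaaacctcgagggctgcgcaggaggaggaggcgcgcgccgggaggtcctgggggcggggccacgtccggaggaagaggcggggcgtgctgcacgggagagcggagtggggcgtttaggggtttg

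CCAAT was in the window of Atm, Brca1, Xrcc5, Xrcc6 and, at 2 places, Ogg1, so that it was present in genes that fell, in one without a call and in the gene that rose. The E2F-like letters were in Brca1 only among these 5. Of the 39 genes, 31 had a RefSeq window: 18 (58.1%) held CCAAT, against 43.4% of 9033 tested genes with a window and 41.1% of all 27025. The E2F-like letters were in 9 (29%), against 13.1% and 7.24%. The CHR-like letters were in 1 (3.23%, Bard1), against 14.7% and 20.2%. Among the 10 genes that fell and had a window, 7 held CCAAT and 1 the E2F-like letters. A match of this kind is a description of the letters and not a binding site.

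Damage signalling had the kinase that answers breaks among the genes that fell, with Rif1 and Trp53bp1 but not the scaffold Mdc1. Atm (ENSMUSG00000034218.16, chromosome 9, 53439149 to 53536740, mm10), the kinase activated by double-strand breaks, stood at 134, 137 and 103 CPM in control against 74.7, 46.3 and 37.1 in knockout. Every knockout library lay below every control library, with the highest knockout value in library 1. The means were 125 ± 18.7 in control and 52.7 ± 19.6 in knockout (SD, n = 3; log2 fold change -1.25, SE 0.24, adjusted p = 0.00788, edgeR), and -1.01 remained with the length and GC trend removed. Rif1 (chromosome 2, 52072832 to 52122383), which acts with 53BP1 to protect break ends from resection, had 160.0, 151 and 148 CPM in control and 100.1, 84.4 and 73.1 in knockout. Its groups were well apart (log2 fold change -0.84, SE 0.14, adjusted p = 0.0049, edgeR), also with the trend removed (-0.64, adjusted p = 0.0106). Trp53bp1 (chromosome 2, 121193281 to 121271407), which encodes 53BP1, had 71.9, 81.7 and 64.7 CPM in control and 52.5, 34.9 and 43.0 in knockout (log2 fold change -0.74, SE 0.17, adjusted p = 0.0149, edgeR). It is one of the longest of the 39 genes, at 14164 bases, and 15% of them are shared with Tubgcp4 on the other strand, which was also lower (-0.78). Its call was lost when control library 2 was left out (adjusted p = 0.081), and likewise for knockout library 2 (0.057) or 3 (0.057).

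The other members of this group gave no call. Mdc1, the scaffold that reads phosphorylated H2AX, had the highest level per length of them, 16.8 RPKM (CPM per kilobase of exon) in control, and the largest change. It had 126, 135 and 114 CPM in control and 112, 86.3 and 87.9 in knockout, groups that did not overlap (log2 fold change -0.39, SE 0.14, adjusted p = 0.0712), and it went to -0.17 with the trend removed. Atr, the kinase of stalled forks, had 116, 117 and 103 CPM in control against 125, 79.4 and 65.3 in knockout. Knockout library 1 was the highest of all 6 libraries and the other 2 knockout libraries were the lowest, so the groups overlapped (-0.32, adjusted p = 0.292). Without knockout library 1 it was called lower (-0.63, adjusted p = 0.0037), and with the length and GC trend removed its estimate turned to 0.26 (adjusted p = 0.211). The effector kinases downstream, Chek1 (0.23, adjusted p = 0.228) and Chek2 (0.082, adjusted p = 0.748), had estimates above 0 and intervals that held 0 (-0.072 to 0.53 and -0.30 to 0.47); that of Chek2 turned to -0.10 with the trend removed and to -0.074 under total counts alone.

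Homologous recombination held the largest number of falls. Brca1 (chromosome 11, 101488764 to 101551955), the ligase subunit that directs breaks to resection, had 84.7, 82.4 and 66.2 CPM in control and 59.2, 46.8 and 45.4 in knockout, without overlap (log2 fold change -0.62, SE 0.16, adjusted p = 0.02, edgeR). Bard1 (chromosome 1, 71027498 to 71103146), its obligate partner, had 33.4, 34.8 and 32.5 CPM in control and 23.3, 26.8 and 24.5 in knockout, a smaller difference with tight groups (log2 fold change -0.43, SE 0.13, adjusted p = 0.0371, edgeR). Palb2 (chromosome 7, 122107262 to 122132985), which bridges BRCA1 to BRCA2, had 20.3, 16.2 and 16.9 CPM in control and 13.1, 9.94 and 10.2 in knockout (log2 fold change -0.68, SE 0.18, adjusted p = 0.0219, edgeR). Brca1, Bard1 and Palb2 were thus lower in every knockout library than in any control library. Groups that did not overlap, in either direction, were found in 43% of all genes tested. Brca2, which encodes the partner that PALB2 holds at the break, had the largest estimate in this role without a call: its values were 60.6, 53.2 and 35.9 CPM in control and 41.1, 16.9 and 22.3 in knockout. Knockout library 1 lay above control library 3 (log2 fold change -0.90, SE 0.31, adjusted p = 0.0563, interval -1.58 to -0.21). It passed in 8 of 16 alternatives, among them the fit without knockout library 1 (-1.34, adjusted p = 0.000541), and over all 16 its estimate ranged from -1.34 to -0.54, the last with the length and GC trend removed (adjusted p = 0.181).

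These calls were not stable to the loss of 1 library. The Brca1 call was lost in 4 of 6 such fits, those that left out control library 1 (adjusted p = 0.0549) or 2 (0.0983) and those that left out knockout library 2 (0.0778) or 3 (0.087). Bard1 and Palb2 passed only when knockout library 1 was the one left out; otherwise their adjusted p lay between 0.0565 and 0.156 and between 0.0532 and 0.089. With the length and GC trend removed Brca1 (-0.41, adjusted p = 0.046), Palb2 (-0.53, adjusted p = 0.0428) and Bard1 (-0.40, adjusted p = 0.0363) were still called.

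The enzymes that process break ends and unwind joined DNA did not move as one. The MRN complex, which senses and trims breaks, has 3 subunits. Mre11a, its nuclease (chromosome 9, 14784654 to 14837123), had 78.8, 93.8 and 83.5 CPM in control and 67.9, 57.0 and 61.1 in knockout and fell (log2 fold change -0.46, SE 0.13, adjusted p = 0.032, edgeR). Rad50, its ATPase and the most abundant uncalled gene of the role per length (16.5 RPKM in control), had 94.8, 91.6 and 79.1 and 83.1, 59.7 and 60.6 CPM, with knockout library 1 above control library 3 (log2 fold change -0.38, SE 0.16, adjusted p = 0.102). Nbn, its signalling subunit, had 39.6, 34.5 and 37.8 and 39.8, 45.8 and 47.9 CPM, with every knockout library above every control library and no call (0.26, adjusted p = 0.182, interval -0.046 to 0.56). Blm, the helicase that dissolves joined chromatids (chromosome 7, 80454733 to 80535119), had 76.2, 92.7 and 92.2 and 65.2, 59.1 and 56.5 CPM and fell (log2 fold change -0.53, SE 0.14, adjusted p = 0.0205, edgeR). The resection factors Rbbp8, which encodes CtIP (-0.13, adjusted p = 0.53), and Exo1, an exonuclease (-0.011, adjusted p = 0.965), gave estimates near 0, which turned to 0.22 and 0.22 with the trend removed. Leaving out control library 2 or 3 (adjusted p = 0.163 and 0.0784) or knockout library 2 or 3 (0.114 and 0.11) ended the Mre11a call, and each of the same 4 fits ended that of Blm, at adjusted p between 0.0733 and 0.11.

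Among the Fanconi anaemia genes Fanci fell the most. Fanci (ENSMUSG00000039187.16, chromosome 7, 79391929 to 79450264), a subunit of the clamp that is ubiquitinated at crosslinks, had 26.1, 28.1 and 22.8 CPM in control and 16.8, 9.47 and 11.3 in knockout. The lowest control was above the highest knockout library (log2 fold change -1.04, SE 0.21, adjusted p = 0.0099, edgeR), and removing the length and GC trend left -0.99. It was called in 15 of 16 alternatives, the exception being the fit without control library 2 (adjusted p = 0.0544), and 16% of its exon bases are shared with Polg on the other strand (-0.37, adjusted p = 0.092). Fancd2, the other subunit of that clamp, had 71.1, 78.4 and 66.0 CPM in control and 64.2, 43.8 and 50.0 in knockout, without overlap and without a call (log2 fold change -0.45, SE 0.16, adjusted p = 0.0678). Fanca (chromosome 8, 123268300 to 123318576), part of the core complex that modifies the clamp, had 71.9, 74.0 and 58.9 CPM in control and 50.9, 28.1 and 38.2 in knockout and fell (log2 fold change -0.81, SE 0.21, adjusted p = 0.0208, edgeR). Fanca went to -0.46 with the trend removed (adjusted p = 0.0353), and 10.5% of its exon bases are shared with Zfp276 on the other strand (-0.27, adjusted p = 0.287). Its call depended on control libraries 1 and 2 (adjusted p = 0.0578 and 0.0931 when either was left out) and on knockout libraries 2 and 3 (0.0671 and 0.0731).

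**Figure D4:**
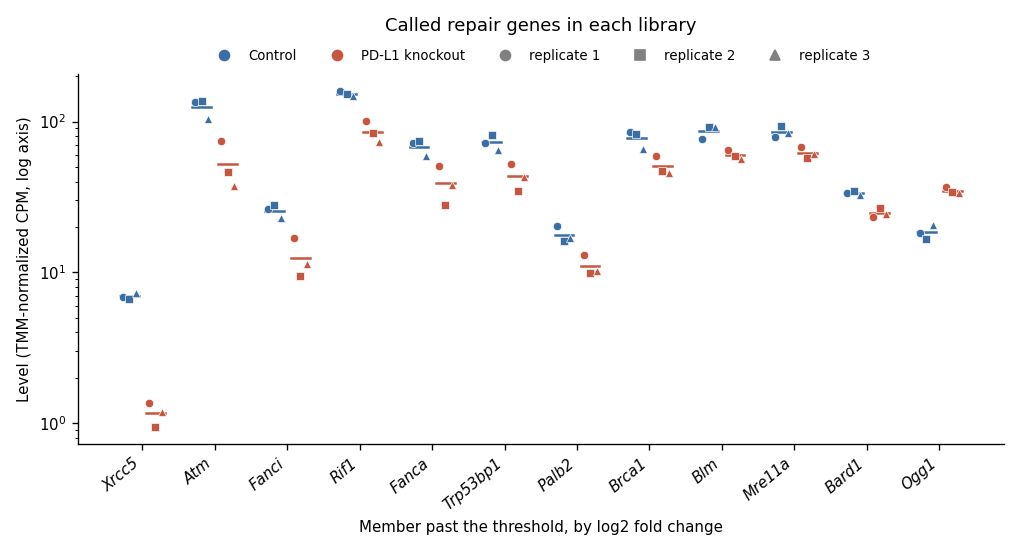
Level of the 12 called genes in each library (log axis, TMM-normalized CPM), ordered by log2 fold change from Xrcc5 (-2.57) to Ogg1 (0.91); marker shapes are replicate numbers and short lines are group means of 3 libraries. In each gene the groups do not overlap, and knockout library 1 (red circles) is the highest knockout library in all of the genes that fell but Bard1.

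End joining showed the largest change of the 39 genes, in 1 subunit of a pair. The Ku heterodimer binds broken ends first and recruits the kinase encoded by Prkdc; Xrcc5 encodes Ku80 and Xrcc6 encodes Ku70. Xrcc5 (ENSMUSG00000026187.8, chromosome 1, 72307421 to 72394952) was counted 77, 112 and 183 times in control against 18, 14 and 24 times in knockout, or 6.89, 6.64 and 7.31 and 1.36, 0.940 and 1.19 CPM. The fall was present in each knockout library (6.95 ± 0.341 to 1.16 ± 0.211 CPM, SD, n = 3; log2 fold change -2.57, SE 0.27, adjusted p = 0.000452, edgeR). Xrcc6 (chromosome 15, 81987835 to 82040085) had 85.5, 86.7 and 90.0 CPM in control and 92.1, 90.9 and 95.3 in knockout. Its log2 fold change was 0.086 with a 95% interval of -0.17 to 0.34 (adjusted p = 0.608), and scaling by total counts alone turned the estimate to -0.068. Per length, Xrcc6 exceeded Xrcc5 by 7.08, 7.46 and 7.03 times in control, against 38.7, 55.2 and 45.5 times in knockout. Xrcc5 thus stood at 2.72 RPKM in control and 0.456 in knockout, and Xrcc6 at 19.5 and 20.7. Unlike most genes that fell, Xrcc5 is short (2555 bases), and with the length and GC trend removed its log2 fold change was -2.81. Over all 16 alternatives it ranged from -2.82 to -2.45.

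The remaining end joining genes gave no call. Prkdc, the DNA-dependent protein kinase, had 64.4, 82.4 and 63.1 CPM in control and 65.1, 36.1 and 35.2 in knockout. Knockout library 1 lay among the controls and the other 2 knockout libraries well below them (log2 fold change -0.63, SE 0.24, adjusted p = 0.0756). Without knockout library 1 it was called (-0.98, adjusted p = 0.000472), and with the length and GC trend removed it was not (-0.25, adjusted p = 0.314). Lig4, the ligase that seals the ends, was the lowest of the 39 per length in control (2.15 RPKM), at 11.5, 10.7 and 11.3 CPM in control and 12.5, 13.4 and 10.4 in knockout (0.11, adjusted p = 0.665, interval -0.28 to 0.49).

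Mismatch repair showed no call. Msh6, the subunit that reads single mismatches, had the highest level and the largest estimate of the 3, at 182, 174 and 179.7 CPM in control and 181, 235 and 199 in knockout. The groups overlapped, with knockout library 1 among the controls (0.20, adjusted p = 0.289, interval -0.10 to 0.50). Msh3, which reads loops of several bases (-0.15, adjusted p = 0.444), and Pms2, the endonuclease subunit (0.03, adjusted p = 0.879), had intervals of -0.45 to 0.16 and -0.26 to 0.32; with the trend removed Msh3 turned to 0.22. Per length the control levels were 41.1 RPKM for Msh6, 3.70 for Pms2 and 2.66 for Msh3.

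Base excision repair held the single rise. Ogg1 (ENSMUSG00000030271.14, chromosome 6, 113326972 to 113335068), the glycosylase that removes 8-oxoguanine, had 18.3, 16.6 and 20.5 CPM in control and 37.1, 34.0 and 33.5 in knockout. The lowest knockout library was well above the highest control, and the 3 knockout libraries were close to each other. The means were 18.5 ± 1.96 and 34.9 ± 1.91 CPM (SD, n = 3; log2 fold change 0.91, SE 0.14, adjusted p = 0.00322, edgeR), and 0.66 remained with the length and GC trend removed (adjusted p = 0.0106). Ogg1 is short (2187 bases), and 10.6% of its exon bases are shared with Camk1 on the other strand, which was also higher (0.69, adjusted p = 0.0354) and stood at 187 CPM in control. Reads on these shared bases cannot be told apart without strand. Mutyh, which removes adenine paired with 8-oxoguanine, gave no call (0.20, adjusted p = 0.583), with knockout library 1 (14.8 CPM) above all other libraries. Apex1, the endonuclease that cuts the abasic site, had 81.0, 56.8 and 70.2 CPM in control and 87.1, 103 and 97.1 in knockout, groups that did not overlap (log2 fold change 0.47, SE 0.15, adjusted p = 0.0509). It is the shortest of the 39, at 1422 bases of which 61.7% are shared with Pip4p1 on the other strand, and its log2 fold change was 0.10 with the trend removed. Ung, the uracil glycosylase, had 46.7, 30.5 and 35.5 and 36.6, 43.0 and 59.2 CPM, a spread within each group as wide as the difference (0.31, adjusted p = 0.298).

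The poly(ADP-ribose) polymerase Parp1, which marks strand breaks, was the most abundant of the 39 genes per length, at 102 RPKM in control and 93.0 in knockout. Its libraries overlapped, at 552, 575 and 486 CPM in control and 496, 456 and 524 in knockout (-0.13, adjusted p = 0.488, interval -0.42 to 0.16). Xrcc1, the scaffold it recruits, had an estimate near 0 (0.087, adjusted p = 0.672). Lig3, the ligase that works with XRCC1, had the largest estimate of this role without a call, at 104, 119 and 85.4 CPM in control and 96.9, 58.6 and 66.4 in knockout, with knockout library 1 within the control range (log2 fold change -0.48, SE 0.20, adjusted p = 0.105). A share of 25.1% of its exon bases lies within Rffl on the other strand. Lig1, the replicative ligase, had 128, 137 and 130.0 and 97.4, 110.2 and 118 CPM, without overlap and without a call (-0.28, adjusted p = 0.12).

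Nucleotide excision repair gave no call. Xpa, the damage verification factor, had the highest level per length of the 4 (5.88 RPKM in control) and the largest estimate, at 10.1, 10.4 and 12.9 CPM in control and 10.9, 15.8 and 17.6 in knockout (log2 fold change 0.40, SE 0.21, adjusted p = 0.179). Xpc, which recognizes the lesion, had 23.1, 23.6 and 21.8 and 34.4, 26.9 and 25.0 CPM without overlap (log2 fold change 0.33, SE 0.16, adjusted p = 0.139). Ercc2, the helicase encoding XPD, lay the other way, also without overlap, at 26.7, 21.3 and 19.5 and 18.6, 17.2 and 17.5 CPM (log2 fold change -0.33, SE 0.16, adjusted p = 0.14). Ercc1, the nuclease partner that incises on the 5′ side, overlapped between groups (0.14, adjusted p = 0.627). The 4 genes were expressed within a narrow range in control, 4.16 to 5.88 RPKM.

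Across the 27 genes without a call, the 95% interval of the fold change held 0 in 19, lay below 0 in 7 and above 0 in 1. Missing the threshold over all genes does not show that those levels were alike.

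A wider list of 133 other repair genes, of which 131 were tested, was read in the same fit. Of these, 5 were higher and 15 lower (3.82% and 11.5%, against 11.8% and 13.5% of all genes), with a median log2 fold change of 0.031. With the length and GC trend removed there were 9 higher and 8 lower, where 9.6% and 10.7% of all genes were. Without control library 2 there were 1 and 1, where 166 and 472 of all genes were called. Without knockout library 1 there were 20 and 23, where 2346 and 2616 of all genes were. In checkpoint signalling 4 of 21 were lower and 0 higher: the clamp subunit Rad9b (-1.42), the ATR activator Topbp1 (-0.51), the ATR adaptor Clspn (-0.51) and the chromatin kinase Tlk1 (-0.39). Topbp1, Clspn and Tlk1 were not called with the trend removed (adjusted p = 0.34, 0.114 and 0.0611). In recombination and crosslink repair 6 of 44 were lower (13.6%, against 13.5% of all genes tested) and 1 higher. Fancm, a fork remodelling translocase (-0.59), the Werner helicase Wrn (-0.75) and Polq, the polymerase of microhomology joining (-0.55), fell, and the recombination mediator Sfr1 rose (log2 fold change 0.69, SE 0.15, adjusted p = 0.0133, edgeR). With the trend removed Fancm (-0.29, adjusted p = 0.0936) and Polq (-0.27, adjusted p = 0.124) were not called.

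In end joining 1 of 12 other genes was lower and 1 higher. Dclre1c, which encodes the end-trimming nuclease Artemis, had 39.9, 47.8 and 41.5 CPM in control and 28.8, 16.7 and 18.8 in knockout (log2 fold change -1.01, SE 0.20, adjusted p = 0.00908, edgeR; -0.85 with the trend removed). Nhej1, the joining factor XLF, had 3.94, 5.04 and 5.31 and 6.64, 11.0 and 11.6 CPM and rose (log2 fold change 1.03, SE 0.26, adjusted p = 0.0203, edgeR), but was not called with the trend removed (0.60, adjusted p = 0.0968). In mismatch repair and its polymerase and clamp loader, 1 of 14 was higher and 1 lower, Pold1, the catalytic subunit of polymerase delta (-0.47; -0.31, adjusted p = 0.057, with the trend removed). Neil3 was the only call among 17 tested genes of base excision, where 1 was lower and 0 higher. This glycosylase of replicating cells had 17.4, 21.6 and 22.5 CPM in control and 8.15, 6.38 and 7.51 in knockout, and fell (log2 fold change -1.48, SE 0.18, adjusted p = 0.000973, edgeR), the lowest adjusted p of the 131. In nucleotide excision repair 2 of 23 were higher, the TFIIH subunits Gtf2h5 (log2 fold change 1.12, SE 0.17, adjusted p = 0.00299, edgeR) and Gtf2h4 (0.65), and 2 lower, the lesion sensor Ddb2 (-0.67) and the stalled polymerase factor Uvssa (-1.06). Of the other repair genes named, only Neil3 and Gtf2h5 passed in every fit that left out 1 library. The calls of Ddb2, Uvssa and Nhej1 were lost in 4 of 6 such fits. Rad9b lost its call in 3, Wrn in 2, and Dclre1c and Gtf2h4 in 1.

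Many repair genes are transcribed in S phase, and proliferation and replication genes were therefore read beside them. Of 43 such genes, 2 were higher and 5 lower, with a median log2 fold change of 0.054. These shares were 4.65% and 11.6%, against 11.8% and 13.5% of all genes tested. Their summed level was 7516 to 8116 CPM in control and 6338, 7545 and 7262 in knockout. The 39 repair genes summed to 2947, 2977 and 2691 CPM in control, against 2575, 2324 and 2394 in knockout. Among the knockout libraries, library 1 had the lowest proliferation sum and the highest repair sum. Abundant genes weigh most in such sums, as Parp1 does in the second (496, 456 and 524 CPM in knockout). What the order of the sums means for the genes that fell was not tested. Among the falls were those of the proliferation marker Mki67 (812, 939 and 654 CPM in control and 433, 340.2 and 313 in knockout, log2 fold change -1.15, SE 0.18, adjusted p = 0.00335, edgeR), the repressor E2f8 (-0.73) and the spindle checkpoint kinase Bub1b (-0.64). The part of the cell cycle in the repair results was not tested. In bulk libraries, a change in the share of cells in S phase and a change in RNA per cell cannot be told apart.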

How the data were processed

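RNA-seq of 6 libraries (3 control, 3 knockout) was analysed. Per the labels' protocols, TRIzol was used for extraction and KAPA Hyper Prep for libraries. Listed in the submitters' processing notes are Trimmomatic 0.39, STAR 2.7.5c, StringTie 2.1.7 and build mm10, with no role or order. The authors deposited raw counts of reads for each gene symbol. How reads were assigned, to which annotation and with what strand setting is not given in the sources used here, so reads of overlapping genes cannot be separated: 21 of the 39 genes share exon bases with another gene, 7 of them 10% or more.

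Genes were filtered with filterByExpr, scaled by TMM and tested by quasi-likelihood (glmQLFTest of edgeR 4.0.16 under R 4.3.3, two-sided), with p-values adjusted by Benjamini-Hochberg over every gene tested and called at 0.05. The coefficient of variation between libraries of a group, beyond counting noise, was 17.5% (common dispersion). No 2 libraries of the same group were duplicates (chi-square per degree of freedom 16.3 or more), and pairs across the groups were not checked. Positions and exon lengths are from GENCODE M21 (30204 symbols matched directly, 307 by another symbol, 99.3% of tested genes with a length and GC content). RPKM is CPM per kilobase of exon. Length and GC offsets came from a robust loess (span 0.3), with GC content taken from each gene's longest transcript. Alternatives were other scalings, filters (none, or 1 CPM in 3 libraries), DESeq2 1.42.0, limma-voom (limma 3.58.1), a replicate block, length and GC offsets, and leaving out each library. A least-squares loess was run first and replaced by the robust one after its result was seen, because it moved the median of all genes to 0.15; it is kept as an alternative chosen after seeing the data, and it calls fewer of the 39 genes lower (4, against 9). The edgeR test and the offsets were also run on simulated counts with the same dispersion for every gene. That setting is simpler than these libraries, and no result here rests on it.

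The members and lists were chosen with earlier results of these data known, so counts over them are descriptions. Of the 39 genes, all called ones were given in full, with the largest change and highest level among the rest of each role; of other repair genes, up to 4 called per role without overlap, and 3 proliferation genes, by lowest adjusted p. One gene that this rule selects is not reported here.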

Additional observations from a re-analysis of the deposited data

How the results depend on the processing

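Atm, Rif1, Xrcc5 and Ogg1 kept direction and call in 16 alternatives, and in the least-squares offsets added later. Leaving out each library gave 3 to 18 members lower and 1 to 3 higher, a member median of -0.29 to -0.17, and 166 to 2346 genes higher and 472 to 2616 lower in all. By role the calls were 2 to 5 in damage signalling, 0 to 10 in recombination, 1 to 2 in end joining, 0 to 0 in mismatch repair, 1 to 3 in base excision and 0 to 1 in nucleotide excision; other repair genes gave 1 to 20 higher and 1 to 23 lower, and proliferation genes 0 to 8 and 2 to 6. Total counts alone gave a member median of -0.44 with all genes at -0.14, 667 genes higher in all, 17 members lower (2 calls in base excision, 1 in nucleotide excision), 24 other repair genes lower, and 0 proliferation genes higher and 10 lower; Xrcc6 turned to -0.068, and Chek2, Ercc1, Lig4, Pms2 and Xrcc1 also went below 0, to between -0.12 and -0.0054. No filter, DESeq2 and limma-voom each gave 2 members higher, Apex1 being the second, and 2 calls in end joining and in base excision; no filter gave 8 other repair genes higher and DESeq2 8 proliferation genes lower. Upper quartile scaling gave 1 proliferation gene higher. Length and GC offsets gave a member median of -0.10, 2 members higher (1 call in nucleotide excision), 9 other repair genes higher and 8 lower, and 1 proliferation gene higher; of the members Atr (0.26), Rbbp8 (0.22), Exo1 (0.22), Msh3 (0.22) and Chek2 (-0.10) changed sign, none with a call. Least-squares offsets, added after seeing the data, gave a member median of 0.040, 2283 genes higher and 926 lower, 4 members in each direction (1 call each in recombination, mismatch and nucleotide excision), and 24 other repair genes higher and 6 lower; Parp1 (0.10), Topbp1 (0.0073), Atr (0.45, called higher), Rbbp8 (0.40), Exo1 (0.35) and Msh3 (0.37) changed sign. The causes of these differences between alternatives were not tested.

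Same-numbered libraries deviated together with correlations of 0.154, -0.0644 and 0.358, so the numbers were not taken as pairs, and not every library correlated best with its own number. With the replicate block 2 end joining members were called, Brca2 was called (-0.96, adjusted p = 0.00561) and 1 proliferation gene was higher; Bard1 was not called (adjusted p = 0.0505). With the block and the offsets the member median was -0.097, 1 proliferation gene was higher and 8 other repair genes were lower. Counts of 14 to 24 per knockout library limit the precision of Xrcc5.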

Other observations

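The genes around Xrcc5 on chromosome 1 were read after its value was seen, as were those around Xrcc6, Atm and Ogg1. Only genes that entered the test were read, so others may lie between them. Mreg, upstream beyond Pecr, had a mean of 1.16 CPM in control and 0.033 in knockout, very few reads, and was called lower (-4.60 ± 0.72 SE on the log2 scale, adjusted p = 0.00364 by edgeR). Pecr itself did not pass (-0.48, adjusted p = 0.0774). Downstream, the fork remodeller Smarcal1 did not pass (0.070, adjusted p = 0.748) and the ribosomal protein gene Rpl37a was higher (0.96, adjusted p = 0.0127). Bard1, one of the genes that fell, lies further upstream on the same chromosome. Around Ogg1, Camk1 and Arpc4 (0.77, adjusted p = 0.00649 by edgeR) were called higher, and the other neighbours read gave no call. Around Xrcc6 only Pmm1 was called, as higher (0.56, adjusted p = 0.0212 by edgeR).

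Npat, a histone gene activator that starts next to Atm on chromosome 9, had means of 57.6 and 38.5 CPM and was called lower (-0.58 ± 0.13 SE on the log2 scale, adjusted p = 0.0138 by edgeR). The estimate for Atm was -1.25, and the difference between the 2 was not tested. The next tested genes beyond it, Acat1 (0.051, adjusted p = 0.811) and Cul5 (0.036, adjusted p = 0.846), did not pass. On the other side of Atm, Poglut3 did not pass (-0.14, adjusted p = 0.475), while Exph5, at 1.20 CPM in control (-2.05, adjusted p = 0.0213), and, further away, Zc3h12c (-0.79, adjusted p = 0.00861) were called lower and Ddx10 between them was not (0.42, adjusted p = 0.0595).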
